A study of Rattus norvegicus with 32 samples.

Results

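Dense-core vesicles are the organelles from which neurons and endocrine cells release neuropeptides, and their messenger RNAs were followed here through 10 genes: the membrane proteins Ptprn and Ptprn2, the granins Chga, Chgb, Scg2, Scg3 and Scg5, and the processing enzymes Pcsk1, Pcsk2 and Cpe. The genes were taken by symbol from the gene count tables, in which all 10 occur among 28914 genes. Granins are acidic proteins that aggregate in the trans-Golgi network and help a vesicle to form around its cargo. The cargo is then cut by proprotein convertases at pairs of basic residues, trimmed by carboxypeptidase E and held until calcium triggers release. Ptprn2 and its paralogue Ptprn encode transmembrane proteins of the tyrosine phosphatase family that sit in the vesicle membrane, and both are known as autoantigens in type 1 diabetes.

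The tissue came from adult male Sprague-Dawley rats that received 4 intraperitoneal injections of saline or of methamphetamine (METH, 10 mg/kg), 1 every 2 h, and were killed 24 h after the last injection. RNA was sequenced from 4 brain regions: the nucleus accumbens (NAc), which is the ventral striatum, the dentate gyrus (DG) and the Cornu Ammonis (CA) of the hippocampus, and the subventricular zone (SVZ) along the lateral ventricle. Each region had 4 saline (Sal) and 4 METH samples, 32 in all, and no sample carried a genetic change. The labels do not tie the samples to single rats, so the p-values measure the spread between these samples. The bulk samples hold whole tissue, in which fewer cells of a type and less RNA per cell cannot be told apart.

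Between 11094002 and 21869773 reads were assigned to genes per sample. Library numbers in the file headers ran against some labels. DG Sal replicates 1 and 2 carried the numbers of METH replicates 1 and 2 of the NAc and CA, and DG METH replicates 1 and 2 carried the numbers of Sal replicates 1 and 2. The 4 SVZ METH samples carried only 2 numbers between them, although their counts differed by more than sampling noise. Whether these 4 DG samples were exchanged or only renumbered is not known from the sources used here. Had they been exchanged, the METH minus saline differences within DG replicates 1 and 2 would have the opposite sign. The labels were kept, and the DG values of the genes, ratios and lists below are followed by values without these samples. Library numbers also recurred between the NAc, DG and CA, so samples of different regions may come from the same rat. The tests between regions, the test of the DG against the CA and the fit of all 32 samples treat them as separate. SVZ METH samples of the same number are also counted as separate, so p-values that involve them may be too small.

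The labelled tissue was checked against marker genes of each cell type. The summed level of 6 striatal projection neuron markers (Drd1, Drd2 and others) was between 1137 and 6298 CPM (counts scaled to library size) in NAc Sal samples. It was 109 CPM in NAc METH 3 and 1359 CPM in DG Sal 3, so both of these samples stood apart from their groups, and it ran from 138 to 4347 CPM among the 8 SVZ samples. The 4 dentate granule neuron markers (Prox1, C1ql2, Dsp and Plk5) summed to between 38.9 and 207 CPM in DG Sal, between 75.8 and 425 CPM in DG METH, between 49.97 and 410.4 CPM in CA Sal and between 68.5 and 206 CPM in CA METH. The DG label was therefore not matched by higher granule neuron markers than the CA label in the saline samples. Of the CA pyramidal neuron markers, Fibcd1 was at 0 in 30 of the 32 samples. The endothelial marker Cldn5 was listed at 0 in all 32. Whether this reflects the tissue or the way reads were assigned to genes was not tested.

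Of the 10 genes, 9 were abundant transcripts and Pcsk1 was not. Per length, as RPKM (CPM divided by the exon length in kilobases, averaged over the 32 samples), the levels fell in the order Cpe 670.4, Scg5 189.6, Ptprn 144, Scg3 119.8, Chgb 113, Scg2 93.8, Chga 78.7, Ptprn2 71.3, Pcsk2 65.04 and Pcsk1 0.465. Cpe, the carboxypeptidase, reached from 886 to 1956 CPM. Pcsk1, the convertase that acts early in the vesicle's maturation, was counted with only 7 to 79 reads per sample, against 3718 to 9280 reads for Ptprn2, so counting error weighs more in its values than in those of the other genes. Among the other 9 genes, the highest sample exceeded the lowest by between 1.79-fold for Scg5, which encodes 7B2, the chaperone of the Pcsk2 enzyme, and 5.37-fold for Chga. Ptprn2 varied 1.99-fold, from 227 CPM in CA Sal 1 to 452 CPM in DG Sal 1.

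**Figure D1:**
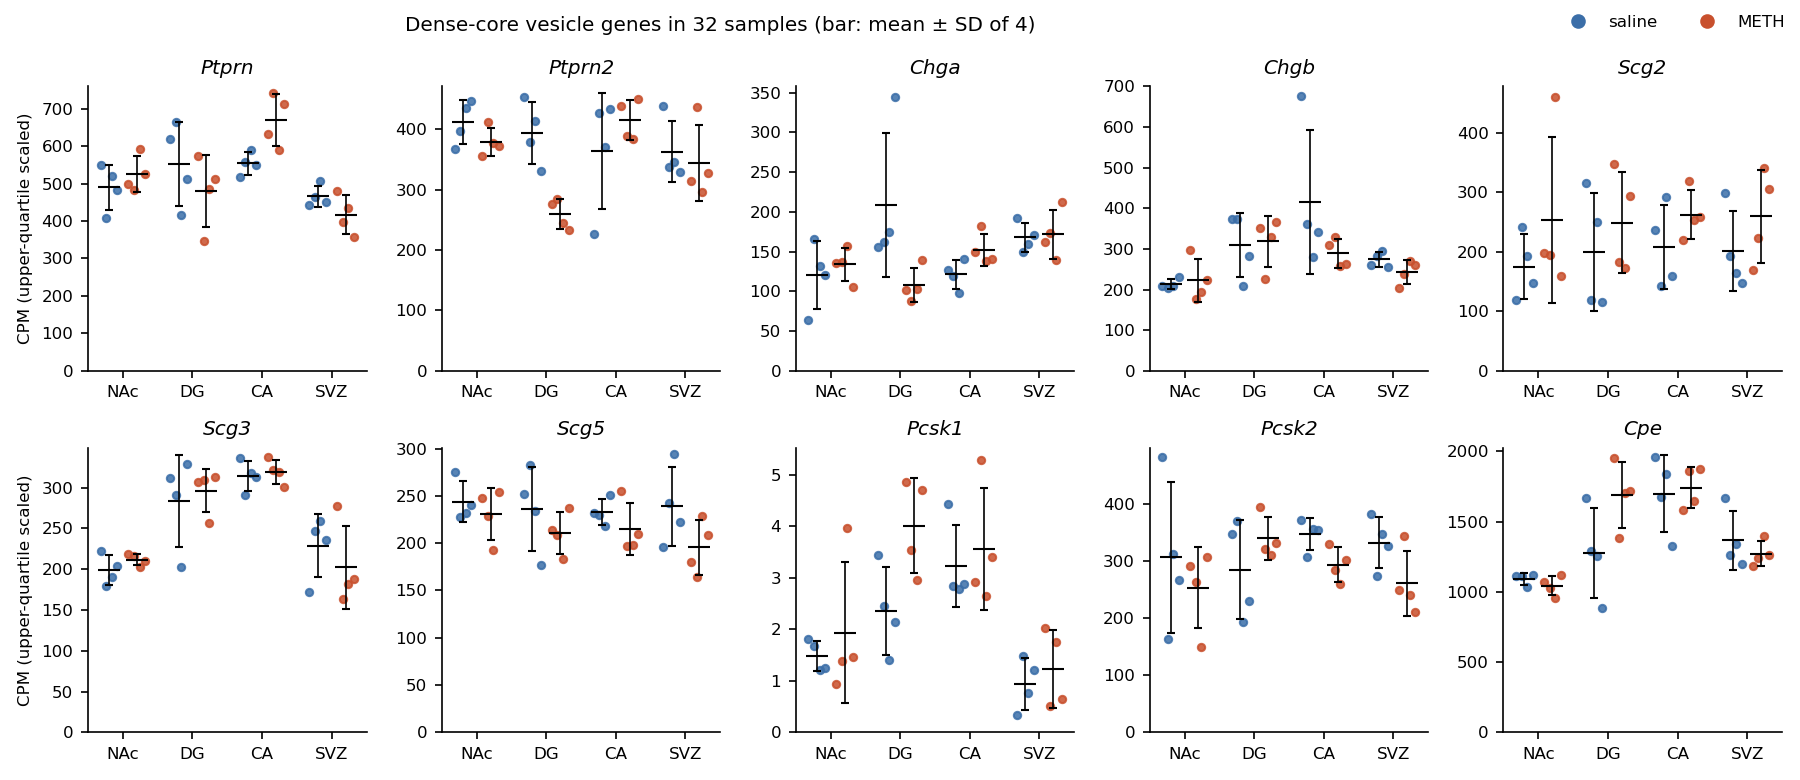
Level of each of the 10 genes in CPM, scaled by the upper quartile (vertical axes, from 0), in the 4 regions (horizontal axes). Points are samples, blue for saline and orange for METH, with the mean and SD of 4 in black; Ptprn2 in the DG lies between 331 and 452 CPM in saline and between 234 and 285 CPM in METH.

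In the rn6 assembly used for counting, Ptprn2 spans chr6:144384773-145133042 on the plus strand with 5131 bases of exon, and Ptprn spans chr9:82446633-82461903 on the minus strand with 3614 bases of exon. Chga lies on chromosome 6 as well (chr6:126434226-126445568), and Scg2 lies on chromosome 9 (chr9:85237458-85243001). No exon of the 10 genes overlapped that of another gene. Promoters were read from RefSeq (assembly GRCr8), which gave 8 of the 10 genes. Those of Chga and Pcsk1 were lacking and were not examined. Each covers 250 bases before to 50 bases after the transcription start. The 3 shown are those of the paralogues Ptprn2 and Ptprn, which differ in the motif below, and of Scg2, the only one of the 8 with the full palindrome. The capitals mark TGACG on either strand, the core of the cyclic AMP response element. They lie at chr6:143582318-143582617 (plus strand) for Ptprn2, at chr9:84204774-84205073 (minus strand) for Ptprn and at chr9:88256817-88257116 (minus strand) for Scg2.
Ptprn2: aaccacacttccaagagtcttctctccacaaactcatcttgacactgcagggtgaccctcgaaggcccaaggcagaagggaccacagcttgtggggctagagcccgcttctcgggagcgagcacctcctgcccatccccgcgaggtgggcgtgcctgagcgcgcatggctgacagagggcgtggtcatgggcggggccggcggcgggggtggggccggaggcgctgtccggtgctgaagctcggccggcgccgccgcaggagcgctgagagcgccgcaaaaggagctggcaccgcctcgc
Ptprn: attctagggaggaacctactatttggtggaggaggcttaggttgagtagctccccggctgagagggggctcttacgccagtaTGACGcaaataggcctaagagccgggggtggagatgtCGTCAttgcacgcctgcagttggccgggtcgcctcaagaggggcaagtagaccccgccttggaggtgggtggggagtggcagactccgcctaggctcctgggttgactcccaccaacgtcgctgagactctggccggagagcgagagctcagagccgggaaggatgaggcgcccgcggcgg
Scg2: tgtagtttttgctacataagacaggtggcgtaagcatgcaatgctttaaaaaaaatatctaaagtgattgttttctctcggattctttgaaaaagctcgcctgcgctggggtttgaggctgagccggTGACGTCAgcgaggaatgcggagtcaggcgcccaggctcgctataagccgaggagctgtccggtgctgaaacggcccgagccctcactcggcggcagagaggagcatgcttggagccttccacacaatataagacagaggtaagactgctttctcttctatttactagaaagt

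The full palindrome TGACGTCA, in which TGACG on both strands overlaps, was found in 1 of the 8 promoters, 123 bases before the start of Scg2, and in 1.83% of all 33469 promoters of that length. TGACG on either strand was in 6 of the 8 (Ptprn, Scg2, Scg3, Scg5, Pcsk2 and Cpe) and in 21.2% of all promoters. The Ptprn2 promoter held no TGACG. It held the GC box GGGCGG 62 bases before the start, a motif present in 33.1% of all promoters, and 69.0% of its bases were G or C, against a median of 51.7% over all promoters.

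Regional levels were compared first among the saline samples. The F test of any difference among the 4 regions (edgeR) passed a false discovery rate (FDR) of 0.01 for 0 of the 10 genes, with 0% of the 15515 genes tested called. At an unadjusted p under 0.05 there were 5 of 10 (Chga, Chgb, Scg3, Pcsk1 and Cpe), against 26.7% of all genes. The lowest FDR was that of Pcsk1 (FDR = 0.0439), followed by Scg3 (FDR = 0.0490). Scg3 encodes a granin that binds Chga and anchors it to cholesterol-rich membrane.

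Pcsk1 was highest in CA Sal, at 3.24 ± 0.80 CPM (SD, n = 4), then DG Sal at 2.36 ± 0.85, NAc Sal at 1.49 ± 0.30 and SVZ Sal at 0.946 ± 0.50. The CA level was above that of the SVZ by a log2 fold change of 1.77 ± 0.38 (SE, edgeR FDR = 0.0140). The DG minus CA difference was -0.46 ± 0.37 (SE, FDR = 0.719). Scg3 was also highest in the CA, with 314 ± 18.6 CPM in CA Sal, 283 ± 56.3 in DG Sal, 229 ± 38.6 in SVZ Sal and 199 ± 18.6 in NAc Sal. The NAc level of Scg3 was below that of the CA by a log2 difference of -0.66 ± 0.15 (SE, FDR = 0.0325), and that of Chgb by -0.96 ± 0.24 (SE, FDR = 0.0373).

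The mean of Ptprn2 was 411 ± 36.6 CPM in NAc Sal, 394 ± 51.8 in DG Sal, 364 ± 95.6 in CA Sal and 362 ± 50.8 in SVZ Sal. Neighbours in that order differed by 0.06, 0.11 and 0.01 on the log2 scale, each with an SE of 0.18, and the F test gave an FDR of 0.779. Its paralogue Ptprn lay between 467 ± 28.0 CPM in the SVZ and 554 ± 29.9 CPM in the CA (FDR = 0.397). Over the 60 comparisons of 1 gene between 2 regions, 0 passed both an FDR of 0.01 and a 2-fold change, with 0.139% of all such comparisons called, and 0 passed the FDR alone, against 0.237%.

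In the METH samples, which the saline test did not use, 3 of the 10 genes passed the FDR of 0.01 in the same F test, against 10.7% of the 15615 genes tested. These were Cpe (FDR = 0.0014), Scg3 (FDR = 0.0044) and Ptprn2 (FDR = 0.0058). At an unadjusted p under 0.05 there were 7 of 10, against 44% of all genes. Cpe was 1045 ± 69.3 CPM in NAc METH, 1271 ± 89.7 in SVZ METH, 1689 ± 234 in DG METH and 1741 ± 148 in CA METH. The NAc level of Cpe was lower than that of the DG by a log2 difference of -0.69 ± 0.12 (SE, FDR = 0.0016) and than that of the CA by -0.73 ± 0.12 (SE, FDR = 0.0027).

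Ptprn2 among the METH samples was lowest in the DG, at 260 ± 24.9 CPM, followed by the SVZ at 343 ± 63.2, the NAc at 379 ± 23.6 and the CA at 415 ± 33.3. The NAc exceeded the DG by a log2 difference of 0.54 ± 0.12 (SE, FDR = 0.0092). The DG minus CA difference was larger, -0.67 ± 0.12 (SE), but its FDR within its own contrast was 0.0662. The DG minus SVZ difference was -0.41 ± 0.12 (SE, FDR = 0.0278), that of NAc minus SVZ 0.14 ± 0.12 (SE, FDR = 0.483), that of NAc minus CA -0.13 ± 0.12 (SE, FDR = 0.558) and that of CA minus SVZ 0.27 ± 0.12 (SE, FDR = 0.115). Of the 60 comparisons between 2 regions, 0 passed the FDR together with a 2-fold change (2.04% of all), and 5 passed the FDR alone (4.1% of all): the 2 of Cpe, that of Ptprn2, and CA minus SVZ for Ptprn (0.67 ± 0.15, SE, FDR = 0.0061) and Scg3 (0.65 ± 0.13, SE, FDR = 0.0049). Without DG replicates 1 and 2, 1 of the 10 genes, Cpe, was called among the METH samples, with Ptprn2 at an FDR of 0.0201 and Scg3 at 0.0195. Cpe was also the 1 gene called without CA METH 2 and without SVZ METH 4. The Ptprn2 call held in 7 of the 16 fits that left out 1 METH sample, with an FDR of up to 0.0210. Among the saline samples, 1 gene was called without DG Sal 3 (Scg3, FDR = 0.0090), and 3 had an unadjusted p under 0.05 without CA Sal 3. For the fits that left out samples the share of all genes is not given here. Their counts are therefore not read as results about the 10 genes. DESeq2 called 3 of 10 in saline (Chgb, Scg3 and Pcsk1, with 9.64% of all genes called) and 6 of 10 in METH (25.3% of all).

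**Figure D2:**
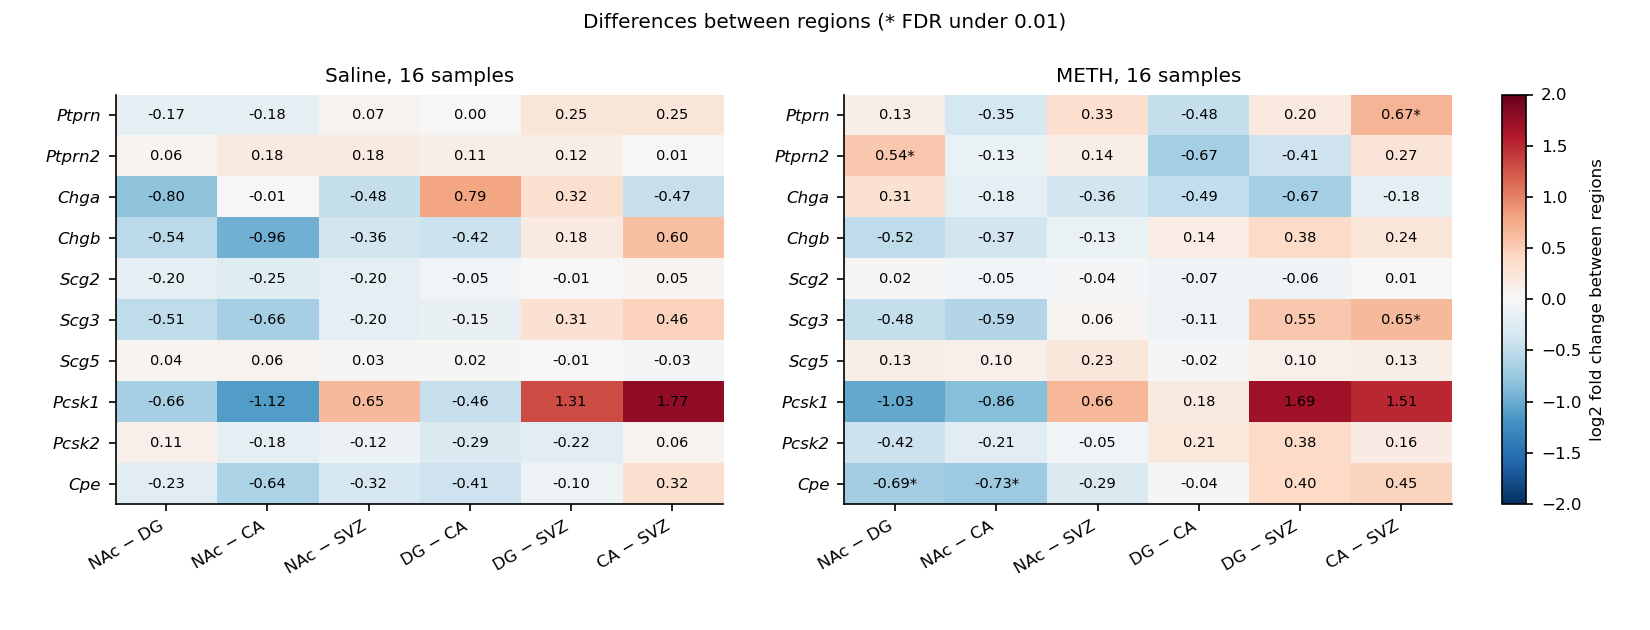
Log2 fold change between each pair of regions (columns, first region minus second) for the 10 genes (rows), in 16 saline samples on the left and 16 METH samples on the right; a star marks an FDR under 0.01. Stars appear in 5 cells, all among the METH samples, and the Ptprn2 row is near 0 in saline.

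METH against saline was tested within each region to ask which vesicle genes differed 24 h after the drug. In the DG, Ptprn2 and Chga were lower in every METH sample than in every saline sample. Ptprn2 was 452, 378, 413 and 331 CPM in DG Sal 1 to 4 and 276, 285, 244 and 234 CPM in DG METH 1 to 4. The groups did not overlap. The log2 fold change was -0.60 ± 0.12 (SE, edgeR), with an FDR of 0.164 over 14800 genes.

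Chga, the granin precursor of peptides such as vasostatin and catestatin, was 155, 162, 174 and 344 CPM in DG Sal and 102, 87.5, 103 and 139 CPM in DG METH. DG Sal 4 stood far above the other saline samples, and the remaining 3 still lay above all 4 METH samples. The log2 fold change was -0.95 ± 0.28 (SE, FDR = 0.250). Without DG Sal 4 it was -0.60. That sample also had the highest choroid plexus markers of the DG Sal samples, 2052 CPM against 0.392 to 178.5 CPM, and the highest oligodendrocyte markers, 12072 CPM against 3152 to 7577 CPM. In DG METH 3 the same sums were 6124 and 14334 CPM, with Chga at 103 CPM. The part of these cells in the Chga difference was not tested.

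Pcsk1 went the other way in the DG, with 3.45, 2.45, 1.398 and 2.14 CPM in saline and 4.86, 3.54, 2.96 and 4.71 CPM in METH. The highest saline sample overlapped the METH range. Its log2 fold change was 0.77 ± 0.31 (SE, FDR = 0.349), and 1.11 ± 0.45 without DG replicates 1 and 2 (SE, FDR = 0.732). With the prefix of the file headers as a covariate it was 1.58, a value that rests on DG METH 1 and 2 against DG Sal 3 alone. Cpe had a log2 fold change of 0.41 ± 0.20 (SE, FDR = 0.453), and the other 6 genes had an FDR of 0.683 or more. Leaving out DG replicates 1 and 2, the value was 0.67 ± 0.24 for Cpe (SE, FDR = 0.732) and 0.59 ± 0.17 for Pcsk2 (SE, FDR = 0.731), against 0.26 for Pcsk2 with all samples.

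None of these differences passed the threshold of an FDR under 0.01 with a fold change above 1.5: 0 of 10 genes, with 0% of the 14800 genes called. At an unadjusted p under 0.05 there were 3 of 10 in the DG (Ptprn2, Chga and Pcsk1), against 12.8% of all genes. Without DG replicates 1 and 2 there were 4 (Ptprn2, Chga, Pcsk2 and Cpe), against 6.72%. Groups that did not overlap were found for 2 of 10, against 7.1% of the 16122 genes of the 32-sample filter. DESeq2 called 1 of the 10, Ptprn2 (log2 fold change -0.60, adjusted p = 0.0011), with 1.3% of all genes called.

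The differences of Ptprn2 and Chga had the same sign, under the labels as given, in both pairs of replicate numbers, and that of Ptprn did not. Between DG replicates 1 and 2 of METH and saline, whose library numbers were crossed, the difference of mean log2 CPM was -0.56, and between replicates 3 and 4 it was -0.63. For Chga the values were -0.75 and -1.03, and for Ptprn -0.53 and 0.11. Fitted without replicates 1 and 2, the log2 fold change of Ptprn2 was -0.64 ± 0.18 (SE, FDR = 0.731) and that of Chga -1.10 ± 0.40 (SE, FDR = 0.732). The file headers also carry a prefix shared by groups of libraries. Among the DG samples only 1 prefix held both treatments, DG METH 1 and 2, both of crossed numbers, and DG Sal 3, the 1 saline sample with high striatal markers. Within it the difference of Ptprn2 was -0.56 and that of Chga -0.88. With the prefix as a covariate the log2 fold change of Ptprn2 was -0.56 and that of Chga -0.88. In the DG this fit compares treatments only within that 1 prefix, so it repeats the same contrast with 1 saline sample.

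Granule neuron markers were higher in 3 of the 4 DG METH samples than in any DG Sal sample, but the groups overlapped. Their summed level was 207, 38.9, 43.4 and 118 CPM in DG Sal 1 to 4 and 425, 374, 75.8 and 281 CPM in DG METH 1 to 4. CA pyramidal neuron markers summed to 1150 and 1056 CPM in DG METH 2 and 4 and to 188 and 312 CPM in DG METH 1 and 3. They summed to between 217 and 429 CPM in DG Sal. This sum did not set the CA apart, at 334 to 559 CPM in CA Sal, 380 to 508 CPM in CA METH and up to 948 CPM in NAc METH. Of its genes, Wfs1 reached 909 CPM in 1 sample and Neurod6 at most 260 CPM. In the CA, sample CA Sal 1 had a summed granule marker level of 347 CPM together with the lowest Ptprn2 of the 32 samples, 227 CPM, while CA Sal 3 had 410.4 CPM with Ptprn2 at 370.1 CPM. DG METH 3, with 75.8 CPM of granule markers, had Ptprn2 at 244 CPM. The part of granule and pyramidal neuron content in the Ptprn2 and Chga differences was not tested.

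**Figure D3:**
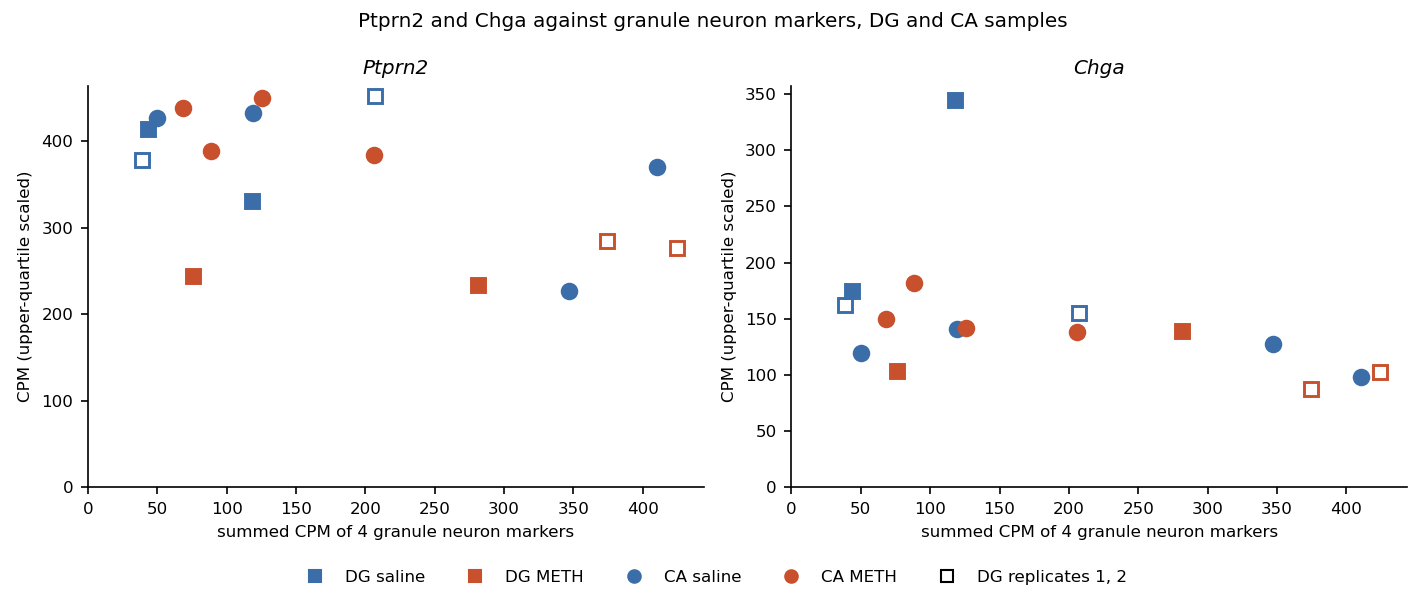
Ptprn2 (left) and Chga (right) in CPM against the summed CPM of 4 granule neuron markers in the 16 hippocampal samples; squares are DG, circles CA, blue saline and orange METH, and open squares are DG replicates 1 and 2. The DG METH squares lie at the lowest Ptprn2 levels of the DG, 234 to 285 CPM, over marker sums from 75.8 to 425 CPM.

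In the CA, 3 of the 10 genes had an unadjusted p under 0.05, against 7.16% of 14612 genes, and 0 were called, with 0% of all genes called. Ptprn was 518, 556, 591 and 549.8 CPM in CA Sal and 633, 740.4, 590.1 and 713 CPM in CA METH. The highest saline sample and the lowest METH sample were nearly equal, and the other METH samples lay above all saline ones. The log2 fold change was 0.27 ± 0.09 (SE, FDR = 0.669). Chga had 127, 119, 98.0 and 141 CPM in saline and 149, 182, 138 and 141 CPM in METH, a log2 fold change of 0.33 ± 0.13 (SE, FDR = 0.681).

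Pcsk2, the convertase that acts in maturing vesicles, had a log2 fold change of -0.24 ± 0.10 in the CA (SE, FDR = 0.686). Its saline samples had 373, 308, 358 and 355 CPM and its METH samples 331, 285, 260.0 and 302 CPM, so the groups overlapped. Chgb, the sister granin of Chga, was at 675 CPM in CA Sal 1 and between 258 and 362 CPM in the other 7 CA samples, with a log2 fold change of -0.52 ± 0.25 (SE, FDR = 0.711). Ptprn2 was 227, 427, 370.1 and 432 CPM in CA Sal and 438, 389, 384 and 449 CPM in CA METH. Its log2 fold change was 0.19 ± 0.18 (SE, FDR = 0.817), within the spread of the samples, and it was 0.02 without CA Sal 1. Within the 2 header prefixes that held both treatments in the CA, the difference of Ptprn2 was 0.17 and -0.07. Groups that did not overlap were found for 0 of 10 genes in the CA, against 4.3% of all. DESeq2 called 0 of 10 (0.089% of all) and gave 4 an unadjusted p under 0.05. Without CA METH 2, only Ptprn kept an unadjusted p under 0.05.

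The METH difference in the DG was then set against that in the CA in 1 model with an interaction term. At an unadjusted p under 0.05 there were 3 of 10 genes, against 15.4% of 15308 genes, and 0 passed the FDR of 0.01 (0% of all). Chga had the largest interaction of the 10 genes in the edgeR fit, with a DG minus CA difference of -1.29 ± 0.33 in log2 fold change (SE, FDR = 0.126). Ptprn2 had -0.80 ± 0.24 (SE, FDR = 0.154) and Ptprn had -0.48 ± 0.22 (SE, FDR = 0.314). The Ptprn value was -0.17 ± 0.17 without DG replicates 1 and 2 (SE, FDR = 0.676) and -0.28 ± 0.27 with the header prefix as a covariate (SE, FDR = 0.770). Without DG replicates 1 and 2, 5 of the 10 genes had an unadjusted p under 0.05, against 15.8% of all, and the interaction was -1.43 ± 0.35 for Chga and -0.83 ± 0.31 for Ptprn2 (SE), at an FDR of 0.130 and 0.231. Without CA Sal 1, the sample with the lowest Ptprn2, the interaction of Ptprn2 was -0.62. Without DG Sal 1, 5 of the 10 genes had an unadjusted p under 0.05, and the share of all genes in that fit is not given here. DESeq2 called 0 of 10 (0.594% of all) and gave 2 an unadjusted p under 0.05.

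**Figure D4:**
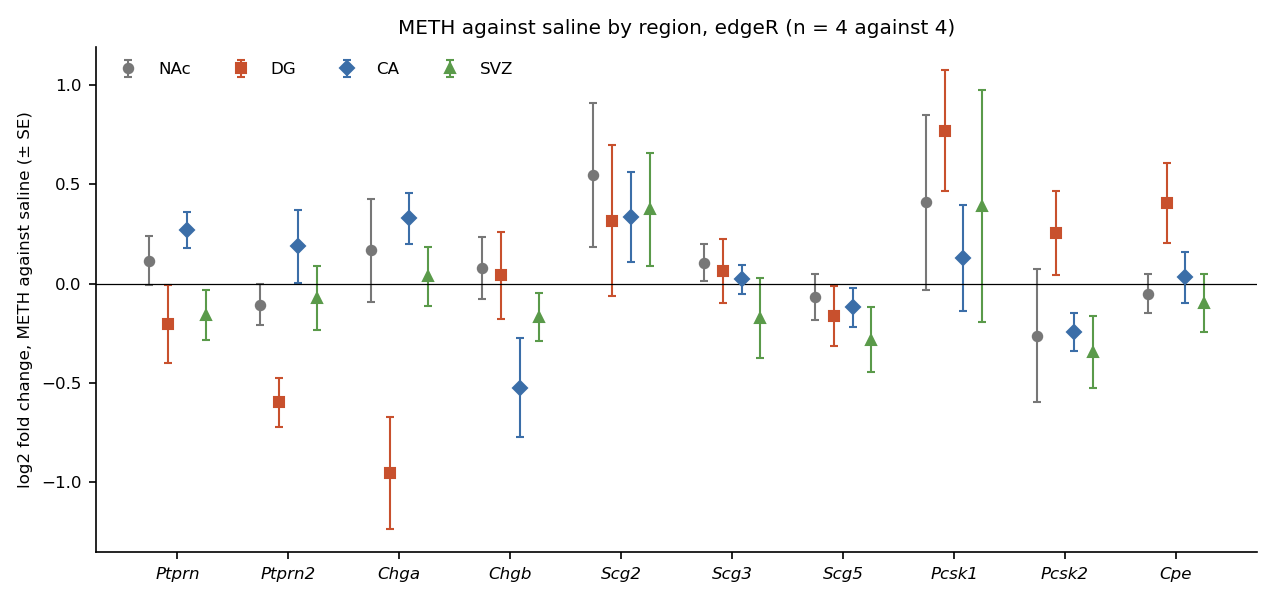
Log2 fold change of METH against saline (vertical axis, with SE from edgeR) for the 10 genes in the NAc (circles), DG (squares), CA (diamonds) and SVZ (triangles), 4 samples against 4 each. Ptprn2 is at -0.60 and Chga at -0.95 in the DG, while the CA values are 0.19 and 0.33; 0 of the 40 values pass the FDR of 0.01.

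In the NAc, 0 of the 10 genes had an unadjusted p under 0.05, against 3.39% of 14771 genes, and 0 were called (0% of all). DESeq2 called 0 of 10 (0.0203% of all) and gave 0 an unadjusted p under 0.05. Ptprn2 had 367, 397, 435 and 446 CPM in NAc Sal and 355, 411, 378 and 371 CPM in NAc METH, a log2 fold change of -0.11 ± 0.10 (SE, FDR = 0.999). Scg2, the precursor of secretoneurin, had the largest value of the 10 in the NAc at 0.55 ± 0.36 (SE, FDR = 0.999). Its METH samples were at 198, 195, 460.1 and 159 CPM, and the high sample was NAc METH 3, the one with few striatal markers. Its saline samples were at 118, 242, 193 and 147 CPM, so the groups overlapped.

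In the SVZ, 0 of the 10 genes had an unadjusted p under 0.05, against 2.58% of 15579 genes, and 0 were called (0% of all). DESeq2 also gave 0 of 10 for both, with 0.0128% of all genes called. Ptprn2 was 438, 337, 345 and 329 CPM in SVZ Sal and 314, 436, 297 and 327 CPM in SVZ METH, a log2 fold change of -0.07 ± 0.16 (SE, FDR = 0.980). In each group 1 sample was high and 3 were close together. The high samples were SVZ Sal 1 and SVZ METH 2. Thalamic neuron markers summed to 1617 CPM in SVZ Sal 1, against 68.9 to 207.6 CPM in the other SVZ Sal samples. They summed to 1441 CPM in SVZ METH 2, against 123 to 974 CPM in the other SVZ METH samples. Oligodendrocyte markers of the 2 high samples were at 18408 and 25478.5 CPM. The other samples had 3795 to 8877 CPM in SVZ Sal and 8648 to 27218 CPM in SVZ METH. Striatal markers of the 2 high samples were at 199.9 and 138 CPM. The other samples had 2407 to 4347 CPM in SVZ Sal and 492 to 2167 CPM in SVZ METH. SVZ METH 4 also had high thalamic (974 CPM) and oligodendrocyte (27218 CPM) markers and low striatal ones (492 CPM), with Ptprn2 at 327 CPM. The part of tissue content in the SVZ values was not tested. Without SVZ Sal 1 the log2 fold change of Ptprn2 was 0.03, and 2 genes (Scg2 and Scg5) had an unadjusted p under 0.05. Without SVZ METH 2 it was 1 gene, Pcsk2. The share of all genes in these fits is not given here. The lowest p of the 10 was that of Pcsk2, with a log2 fold change of -0.34 ± 0.18 (SE, FDR = 0.979). Groups that did not overlap were found for 0 of 10 genes in the NAc and in the SVZ, against 2.4% and 1.59% of all genes.

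Over all 32 samples, with region as a covariate, 2 of the 10 genes had an unadjusted p under 0.05, against 7.55% of 15652 genes, and 0 were called (0% of all). Samples that may come from the same rat are counted separately in this fit, so its p-values may be too small. DESeq2 called 0 of 10 and gave 2 an unadjusted p under 0.05. The METH level of Scg2 was above that of saline by a log2 fold change of 0.39 ± 0.17 (SE, FDR = 0.613), with values of 0.55, 0.32, 0.33 and 0.37 in the NAc, DG, CA and SVZ. Scg5 was lower by -0.16 ± 0.07 (SE, FDR = 0.583), with values of -0.07, -0.16, -0.12 and -0.28. For Ptprn2 the average was -0.15 ± 0.09 (SE, FDR = 0.723), -0.26 without the CA (FDR = 0.483), -0.09 without DG replicates 1 and 2 (FDR = 0.813) and -0.00082 without the DG. Only Scg5 had an unadjusted p under 0.05 without NAc METH 3 or without DG METH 1. Without CA Sal 1 or without SVZ METH 2, 4 genes (Ptprn2, Scg2, Scg5 and Pcsk1) had one. The share of all genes in these fits is not given here.

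Ratios of 2 genes within a sample do not depend on the scaling between libraries. They were compared by exact two-sided permutation of 4 samples against 4, in which 70 splits allow a smallest p of 0.0286. The Chga to Chgb log2 ratio was -0.61 ± 0.75 in DG Sal and -1.55 ± 0.21 in DG METH (SD, n = 4), a difference of -0.94 with an exact p of 0.0286. In the CA it was -1.70 ± 0.49 in saline and -0.92 ± 0.09 in METH (SD, n = 4), a difference of 0.78 with an exact p of 0.0286. Both had an adjusted p of 0.229 over the 16 tests, so 0 of 16 passed 0.05. Passing would have needed most of the 16 tests to reach the smallest p of 0.0286. The count of 0 therefore does not show that the ratios were alike. The Ptprn2 to Ptprn log2 ratio differed by -0.39 in the DG (-0.48 ± 0.34 in saline, -0.86 ± 0.39 in METH, exact p = 0.20, n = 4) and by -0.04 in the CA (exact permutation p = 0.89). Between DG replicates 1 and 2 alone, the METH minus saline difference was -0.34 for Chga to Chgb and -0.03 for Ptprn2 to Ptprn, and between replicates 3 and 4 it was -1.54 and -0.74. DG Sal 4, the sample with the high Chga, is among the latter.

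Between regions in saline, 0 of 24 ratio tests passed the adjusted p of 0.05. Here too, passing would have needed most of the tests at the smallest exact p, which 4 tests reached. These were Pcsk1 to Pcsk2 in the DG and in the CA against the SVZ, with log2 differences of 1.69 and 1.85, and Chga to Chgb, with differences of 1.09 for DG minus CA and -0.99 for CA minus SVZ (exact permutation, adjusted p = 0.171 for each). The ratio of Pcsk1 to Pcsk2 counts was low in all regions, with a mean log2 ratio between -8.60 in SVZ Sal and -6.76 in CA Sal.

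The other genes of the vesicle pathway were counted from 3 lists. The list of cargo and processing held 10 genes, of which 9 were tested. Pcsk1n, the proSAAS inhibitor of Pcsk1, had 0 to 3 reads in every sample and was not. Such counts are not read as absence of the transcript, since read assignment was not tested. In the DG, 2 of 9 had an unadjusted p under 0.05, against 12.8% of all genes. Cpd, a carboxypeptidase of the trans-Golgi network related to Cpe, was 128, 130.0, 112 and 135 CPM in DG Sal and 178, 188, 225 and 186 CPM in DG METH. Its groups did not overlap, and its log2 fold change was 0.62 ± 0.11 (SE, FDR = 0.157), or 0.73 ± 0.19 without DG replicates 1 and 2 (SE, FDR = 0.731). Vgf, a granin-like peptide precursor, had -0.72 ± 0.28 (SE, FDR = 0.350), and -0.07 ± 0.34 without them (SE, FDR = 0.983). The median log2 fold change of the list was 0.12, against -0.01 over all genes tested. The count was 1 of 9 without DG replicates 1 and 2, against 6.72% of all genes, and the median 0.13, against -0.03.

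In the CA, 2 of the 9 had an unadjusted p under 0.05, against 7.16% of all genes: Resp18 at 0.63 ± 0.23 (SE, FDR = 0.669) and Pcsk5 at 0.30 ± 0.13 (SE, FDR = 0.688), with a list median of 0.24 against 0.01 over all genes. In the NAc and in the SVZ it was 0 of 9, against 3.39% and 2.58% of all, with the lowest p at Pcsk7 in the NAc (0.14 ± 0.09, SE, FDR = 0.999) and at Cpd in the SVZ (0.50 ± 0.34, SE, FDR = 0.979). The interaction of Cpd between the DG and CA was 0.80 ± 0.17 (SE, FDR = 0.126), of the opposite sign to that of Chga and Ptprn2.

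Of the 17 genes for vesicle biogenesis, transport and release, all were tested. In the DG, 5 had an unadjusted p under 0.05, 3 above and 2 below saline, with a list median of -0.08 against -0.01. The share of all genes was 12.8%. Without DG replicates 1 and 2 it was 3 of 17, against 6.72%, with a median of 0.09. Stx6, a syntaxin of the trans-Golgi network, was 115, 112, 101 and 113 CPM in DG Sal and 139, 181, 127 and 148 CPM in DG METH. The groups did not overlap, with a log2 fold change of 0.43 ± 0.12 (SE, FDR = 0.224), or 0.36 ± 0.17 without DG replicates 1 and 2 (SE, FDR = 0.739). In the CA, 3 had an unadjusted p under 0.05, against 7.16% of all genes, all below saline, with a list median of -0.11 against 0.01. Stx6 was among them at -0.37 ± 0.14 (SE, FDR = 0.669), and Ica1, a binding partner of Pick1 on secretory vesicles, had the lowest p (-0.26 ± 0.08, SE, FDR = 0.669). In the NAc and SVZ it was 0 of 17 each, against 3.39% and 2.58% of all genes. The lowest p was at Syt4 in the NAc (-0.29 ± 0.15, SE, FDR = 0.999) and at Arfip1 in the SVZ (0.19 ± 0.11, SE, FDR = 0.979).

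Of 15 neuropeptide precursors, the cargo of these vesicles, 13 were tested. Npy had 0 to 3 reads per sample, at 0 in 23 samples, and Cort was not analysed here. Whether the few reads of Npy reflect low expression or the way reads were assigned to genes was not tested. In the DG 2 of 13 had an unadjusted p under 0.05, both below saline, with a list median of -0.54 against -0.01 and a share of 12.8% among all genes. It was 1 of 13 without DG replicates 1 and 2, above saline, against 6.72% of all genes, with a list median of -0.47. That gene was the neurotrophin Bdnf, which the list includes beside the peptide precursors (3.19 ± 0.86, SE, FDR = 0.731). In the CA it was 3 of 13, against 7.16% of all genes, all above saline, with a list median of 0.42 against 0.01. Cartpt, the precursor of the CART peptides, had the lowest p in both. It was 4.46, 5.86, 16.97 and 0.658 CPM in DG Sal and 2.21, 1.59, 0.845 and 2.701 CPM in DG METH, a log2 fold change of -1.93 ± 0.80 (SE, FDR = 0.370). It was -2.33 ± 1.57 without DG replicates 1 and 2 (SE, FDR = 0.788). Its highest value in the DG was in DG Sal 3, the sample with striatal markers at 1359 CPM, against 140 to 246 CPM in the other DG Sal samples, and inhibitory neuron markers at 2088 CPM, against 378 to 702 CPM. Without DG Sal 3 the log2 fold change of Cartpt was -0.99 ± 0.67 (SE, FDR = 0.570), and the median of the list was -0.62. In the CA it was 1.48, 7.45, 2.37 and 1.48 CPM in saline and 1.17, 22.2, 6.99 and 33.6 CPM in METH, a log2 fold change of 2.34 ± 0.89 (SE, FDR = 0.669).

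In the NAc, 2 of 13 precursors had an unadjusted p under 0.05, against 3.39% of all genes, both above saline. Tac3, the neurokinin B precursor, was 7.84, 20.4, 17.6 and 12.2 CPM in NAc Sal and 36.8, 49.1, 19.8 and 29.5 CPM in NAc METH, with overlap at 1 sample and a log2 fold change of 1.23 ± 0.34 (SE, FDR = 0.999). In the SVZ, 1 of 13 did, against 2.58%. Adcyap1, the precursor of PACAP, was 0.755, 0.903, 0.578 and 0.288 CPM in SVZ Sal and 11.2, 0.569, 6.25 and 1.97 CPM in SVZ METH, a log2 fold change of 2.97 ± 0.86 (SE, FDR = 0.979).

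**Figure D5:**
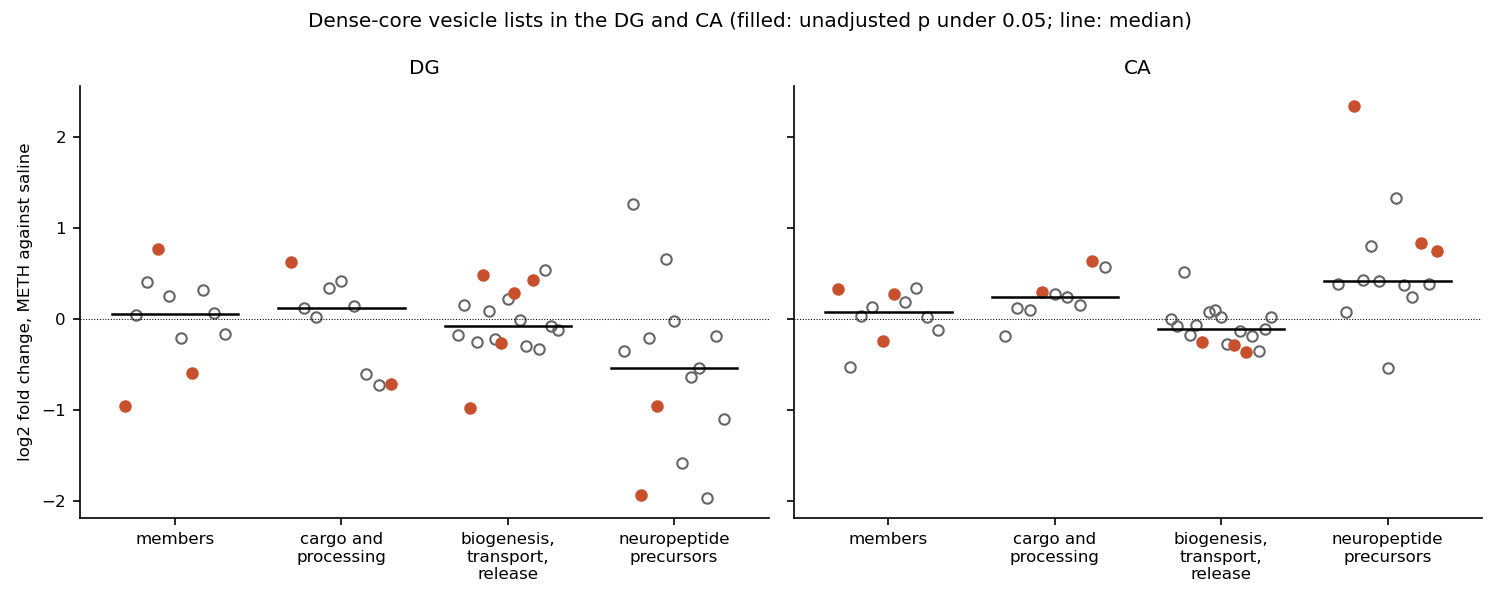
Log2 fold change of METH against saline for each tested gene (circles) of the 10 vesicle genes and of 3 further lists, in the DG (left) and CA (right); filled circles have an unadjusted p under 0.05 and the lines are list medians. The median of the neuropeptide precursors is -0.54 in the DG, with DG Sal 3 and its high striatal and inhibitory markers included, and 0.42 in the CA.

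Across the 32 samples the genes whose levels were most like that of Ptprn2 were none of the other 9 vesicle genes. Over log2(CPM + 1), Pearson's r with Ptprn2 was 0.82 for Kcnf1, a potassium channel subunit, 0.76 for Ptprt, a receptor tyrosine phosphatase, 0.74 for Cxxc4, 0.74 for Gabra3, a GABA-A receptor subunit, and 0.74 for Grin3a, an NMDA receptor subunit. These samples share regions and treatments, and after centring each group on its own mean r was between 0.53 and 0.67 for the same 5 genes. The 5 genes were picked over samples that include the DG groups, so a lower level in DG METH follows in part from that choice. Among them, Kcnf1 was 81.3 ± 28.8 CPM in DG Sal and 20.0 ± 11.6 CPM in DG METH (SD, n = 4). Cxxc4 was 59.1 ± 2.74 and 32.4 ± 1.37 CPM. The DG values of Ptprt, Gabra3 and Grin3a are not given here. In DG replicates 3 and 4 alone, Kcnf1 was 61.7 and 57.9 CPM in saline and 19.9 and 3.71 CPM in METH. Of the other 9 vesicle genes, Ptprn was the most like Ptprn2, at r = 0.25 and rank 2082 of 16121 genes, and Chgb the least, at r = -0.41.

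Among the 10 genes themselves, the highest within-group correlations were those of Ptprn with Pcsk1 (r = 0.53), Scg2 with Cpe (r = 0.53) and Scg3 with Pcsk1 (r = 0.50), over 32 samples centred on their group means. Ptprn2 with Ptprn had r = -0.05 and Ptprn2 with Chga r = -0.07 on that scale, and Ptprn2 with Chgb r = -0.49. These are descriptions over samples that share library scaling and tissue composition.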

How the data were processed

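The study sequenced ribosomal RNA-depleted total RNA of 32 samples. The authors trimmed the reads with cutadapt 2.7, inspected them with FastQC 0.11.4, aligned them to rn6 with STAR 2.5.2b and deposited raw counts per gene from featureCounts 1.6.3, made without regard to strand according to the file headers. Reads of a gene and of an antisense partner therefore cannot be told apart in these counts.

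From the deposited counts, each region's samples were fitted with edgeR 4.0.16 (quasi-likelihood test, upper-quartile normalization, filterByExpr) in R 4.3.3 and adjusted by Benjamini-Hochberg over all genes tested. Calls for METH needed a fold change above 1.5 beside an FDR below 0.01, and those for pairs of regions a 2-fold change. The interaction used DG and CA samples, and the 32-sample fit had region as a covariate. CPM use upper-quartile library sizes over 16122 genes. Ratios were tested on log2 values with 0.5 added to each count, by exact permutation over all splits in Python 3.11.15. The scripts were tested on simulated counts. Alternatives were TMM, DESeq2 1.42.0, other filters, 2 RUVr factors and the replicate number as a block. Further ones were all samples in 1 fit, leaving out samples, and the header prefix as a covariate. SVZ METH samples of the same library number were also summed, for the SVZ, over all regions and between regions in METH. The pairwise contrasts between regions were not repeated with these sums. The prefix, and the lists and ratios without the DG samples that stood apart, were chosen after seeing the data. The study also used factors of unwanted variation, whose number is not given in the sources used here.

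Named genes were the 10 members, the gene with the lowest unadjusted p per region in each of 3 further lists, and the 5 genes most correlated with Ptprn2. Vgf, Pcsk5, Bdnf and Stx6 in the CA were named beside them after their values were seen. The members and lists were chosen with earlier results of these data known.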

Additional observations from a re-analysis of the deposited data

Results flagged for a closer look

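In 6 of 80 groups of 4 samples, the highest or lowest sample lay farther from the rest than Dixon's 95% critical value allows, and chance gives about 1 in 20. Ptprn2 was 438 CPM in SVZ Sal 1, against 329 to 345 CPM in the other SVZ Sal samples, and that sample had thalamic markers at 1617 CPM, against 68.9 to 207.6 CPM in the others. Chga was 344 CPM in DG Sal 4, against 155 to 174 CPM, and that sample had choroid plexus markers at 2052 CPM, against 0.392 to 178.5 CPM. Scg2 was 460.1 CPM in NAc METH 3, the sample with few striatal markers, against 159 to 198 CPM. Scg3 was 257 CPM in DG METH 3, against 306 to 313 CPM. Pcsk1 was 4.43 CPM in CA Sal 1, against 2.79 to 2.88 CPM. Cpe was 1031 CPM in NAc Sal 3, against 1110 to 1117 CPM.

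For 3 genes the METH difference in the DG was below the one in the CA in the interaction test (unadjusted p under 0.05), by a log2 difference of -0.48 for Ptprn, -0.80 for Ptprn2 and -1.29 for Chga, and 0 of the 3 passed the FDR of 0.01 (edgeR). Without DG replicates 1 and 2 the values were -0.17 ± 0.17 for Ptprn (SE, FDR = 0.676), -0.83 for Ptprn2 and -1.43 for Chga.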

How the results depend on the processing

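The count of called genes stayed at 0 of 10 for METH against saline in the NAc, CA, SVZ, over all regions and in the interaction, under every alternative run. In the DG DESeq2 called 1. With 2 RUVr factors, the genes below an unadjusted p of 0.05 numbered 1 (NAc), 5 (DG), 5 (CA), 2 (SVZ) and 5 (interaction), against 13.7%, 20.5%, 13.3%, 20.1% and 22.3% of all genes. Apart from the DESeq2 calls between regions, the counts that follow are printed without the share of all genes. So are the DESeq2 counts at an unadjusted p and the earlier counts from fits that left out 1 sample. None of these counts is read as a result about the 10 genes. In 1 fit of all 32 samples the genes below an unadjusted p of 0.05 numbered 1 in the CA and 1 in the SVZ. With the header prefix as a covariate they numbered 1 in the CA and 0 over all regions, and over all regions 1 without the NAc, 1 without the SVZ and 1 without DG replicates 1 and 2, which gave 5 in the interaction. Between regions in saline, 2 genes were called at an FDR under 0.05, 3 by DESeq2 (9.64% of all genes) and 1 with RUVr factors. In METH it was 6, 6 (25.3% of all genes by DESeq2) and 5, and 1 without DG replicates 1 and 2. Leaving out single samples moved this number to between 1 and 4 for the CA, 0 and 2 for the SVZ, 2 and 5 for the interaction, 1 and 4 over all regions and 3 and 6 between regions in saline, with 0 to 1 called in saline and 1 to 4 in METH. The log2 fold change of Ptprn2 in the SVZ ranged from -0.21 to 0.026 on leaving out single samples, the highest without SVZ Sal 1. The cause of these changes was not tested.

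In the DG, the log2 fold change of Ptprn2 lay between -0.67 and -0.53 and that of Chga between -1.10 and -0.60 on leaving out single samples. With the replicate number as a block, Ptprn2 in the DG had -0.60 (FDR = 0.156), and the block changed no call. Same-numbered saline and METH samples did not consistently deviate together (correlation from -0.77 to 0.40 over 16 pairs, 7 above 0.1), so the numbers were not taken to pair the samples. Pairs between regions were also formed by replicate number. Those with the SVZ or with DG replicates 1 and 2 do not share a library number, so their pooled range does not test the library numbers. Over all 48 pairs between regions the correlation ran from -0.40 to 0.39, with 14 above 0.1. All 4 pairs of NAc and CA saline samples were among these (0.12 to 0.24), a set singled out after its values were seen. The NAc and CA METH pairs, which share library numbers too, ran from -0.11 to 0.23. DG replicates 3 and 4 share library numbers with the NAc and CA. Their correlations with the NAc were 0.25 and -0.01 in saline and 0.26 and 0.06 in METH. With the CA they were 0.07 and 0.02 in saline and -0.06 and 0.07 in METH. Whether replicate or library numbers pair samples of different regions is not settled by these values. With the block the interaction was -0.80 for Ptprn2 (FDR = 0.223). With 7 to 79 reads per sample, Pcsk1 is limited by depth.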
